A study of Mus musculus with 18 samples.

Results

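Messenger RNA of the mitochondrial respiratory chain was followed through 90 genes, taken from the 18194 genes that had a probe set of their own on the arrays. They were chosen by symbol alone: the gene symbol had to begin with Nduf followed by a, b, c, s or v, with Uqcr, with Cox4 to Cox8 or with Atp5, or to be Sdha, Sdhb, Sdhc or Sdhd. Where a gene had more than 1 probe set, the brightest over all arrays stood for it. The 90 genes comprised 36 named as complex I subunits, 8 complex I assembly factors (Ndufaf), 4 genes of complex II, 8 of complex III, 17 of complex IV and 17 of ATP synthase. These groups follow the gene symbols, and Ndufa4 and Ndufa4l2 are counted with complex I by name only. A total of 88 passed the filter for dim probe sets and were tested. The other two, Cox7a1 and Cox7b2, forms of complex IV subunits known from muscle and testis, lay between 2.72 and 3.55 on the log2 scale on all 18 arrays, below the filter value of 4.06, and were not tested.

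The respiratory chain passes electrons from NADH and succinate through complexes I to IV to oxygen and pumps protons across the inner mitochondrial membrane, and ATP synthase uses the proton gradient to make ATP. Most of its subunits are encoded in the nucleus, and complex I in particular needs assembly factors that are not part of the finished enzyme. Resting and memory CD8 T cells are known for drawing much of their ATP from oxidative phosphorylation, and cytokines such as IL-7 and IL-4, whose receptors share the common gamma chain, support their survival in culture.

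RNA came from CD8 T cells of F5 mice, which carry a transgenic T cell receptor and whose genotype is given as C57Bl/6. Cells were sorted from spleen by flow cytometry, and the memory cells, named TIM cells in the labels, came from F5 mice that had been given the NP68 peptide in 2 immunisations and were taken at day 45. There were 8 groups: naive cells ex vivo (2 arrays), memory cells ex vivo (4), naive cells after 20 hours with IL-7 at 10 ng/mL (2) or with IL-7 and IL-4 at 20 ng/mL (2), and memory cells after 20 hours in medium, with either cytokine or with both (2 arrays each). Per the design text the cells came from 2 sorted naive and 4 sorted memory populations, and only 2 of the memory populations were cultured. By that text the cultured memory groups share populations with each other, and so do the naive groups, ex vivo and cultured. Cultured memory arrays may also share populations with memory arrays ex vivo. No label says which arrays share a population or which animals were used, and the main fit treated all arrays as independent. The p-values measure only the spread between these arrays, which may be technical. In such bulk RNA, fewer cells of a type and less RNA per cell cannot be told apart.

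The median of an array was 4.62 to 4.76 (log2), and precision is limited by how few arrays there are. The mean level of 7 CD8 T cell markers was 11.54 to 12.19 on every array, and that of 7 memory markers was 9.10 to 10.16 in memory cells and 5.66 to 7.13 in naive cells. The naive arrays were not alike in it. It was 6.83 to 6.94 ex vivo, 5.72 and 7.13 on the arrays with IL-7, and 5.66 and 7.08 on those with both cytokines. The mean of 3 naive CD8 markers did not separate the cell types ex vivo (11.61 to 11.67 in naive, 11.48 to 11.69 in memory cells). With IL-7 it was lower in naive cells (11.34 to 11.43) than in memory cells (11.63 to 11.81). The mean of 5 B cell markers was 5.41 to 5.97 in memory cells ex vivo, 5.22 to 5.29 in memory cells with IL-7 and 4.94 to 5.05 on naive arrays, and none of them was below the filter on every array. Red cell precursor markers averaged 5.2 to 7.44 on memory and 3.78 to 4.70 on naive arrays, with 1 of 2 below the filter throughout. The array labelled medium, replicate 2, was most similar over all genes to memory ex vivo array 2 (SD of the difference 0.239, log2), which in turn was most similar to it. Its label is therefore in doubt, no label settles it, and a value for memory cells in medium may not describe cultured cells on that array. The largest changes and counts that rest on it are given with and without it.

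Before any comparison, 3 arrays stood apart in the respiratory chain genes themselves. The mean deviation of the 88 genes from their 18-array means was -0.59 on naive IL-4 plus IL-7 array 1 and 0.26 on array 2 of the same group. It was -0.43 on memory ex vivo array 4, against 0.01 to 0.05 on the other 3 arrays of that group, and -0.27 on naive ex vivo array 2, against 0 on array 1. Over all genes tested the mean deviation of any array was between -0.10 and 0.09. In the naive IL-7 group, array 1 was lower than array 2 for 72 of 88 members, with a smaller median difference of -0.13. In these 4 groups the spread between arrays was thus shared by many members, and a comparison that uses them carries it.

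**Figure D1:**
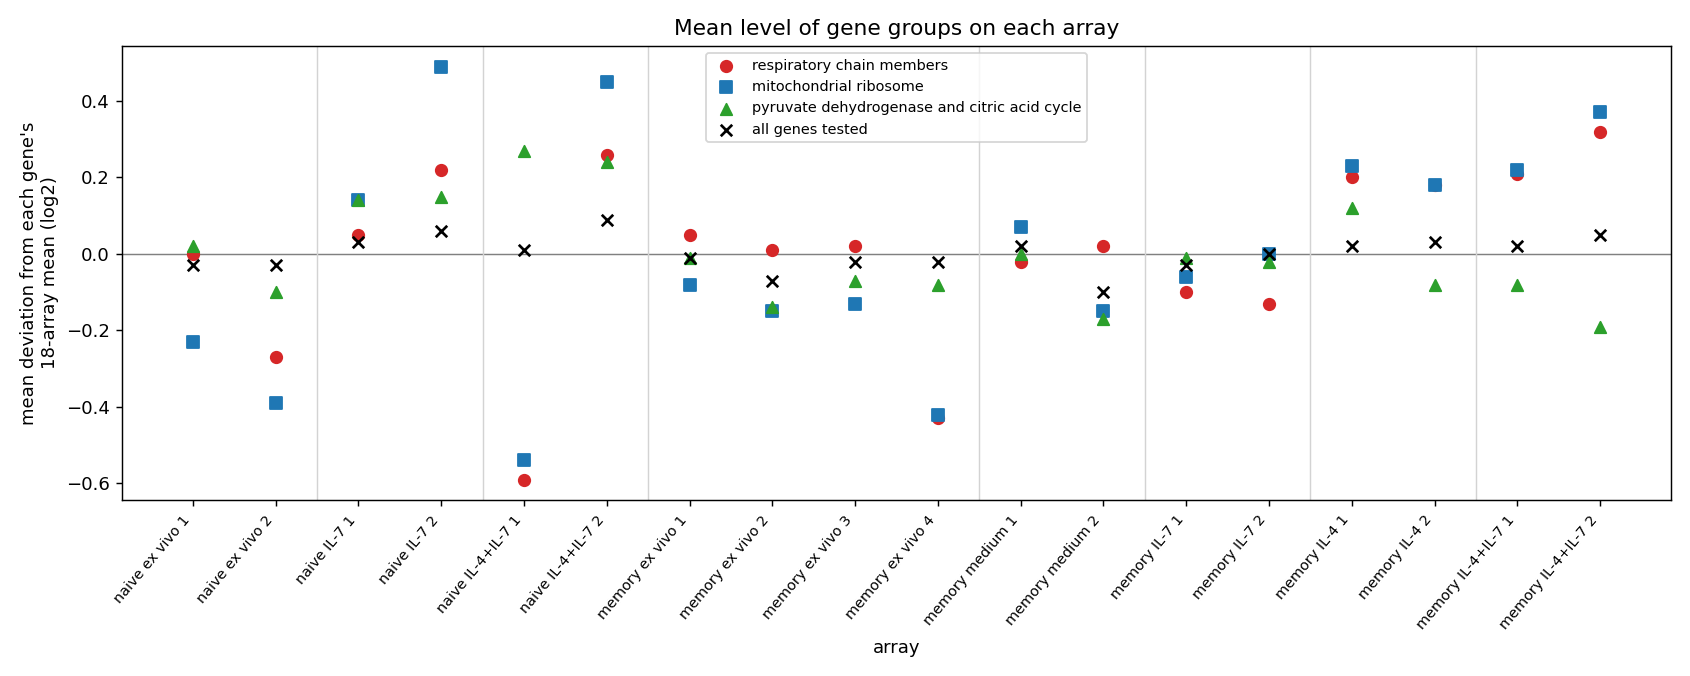
Mean deviation (log2) of each array from the 18-array mean, averaged over the respiratory chain genes, the mitochondrial ribosome, the pyruvate dehydrogenase and citric acid cycle genes, and all genes tested. Naive IL-4 plus IL-7 array 1 (-0.59) and memory ex vivo array 4 (-0.43) are the lowest points of the respiratory chain genes, while the all-gene points stay between -0.10 and 0.09.

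Across the 8 group means, 47 of the 88 genes (53.4%) were highest in memory cells with IL-4 and IL-7, where 18.9% of all genes tested had their highest mean. Another 13 (14.8%, against 9.32% of all genes) were highest in memory cells with IL-4 alone, and none was highest in memory cells with IL-7 alone or in medium (8.81% and 3.69% of all genes). The lowest mean fell in naive cells with IL-4 and IL-7 for 36 genes (40.9%, against 16.2% of all genes) and in memory cells with IL-7 alone for 17 (19.3%, against 13.4%). These counts describe the group means and were not tested. Single genes spanned from 0.29 log2 units over the 18 arrays for Uqcrfs1, the Rieske iron-sulfur protein of complex III (11.55 to 11.84), to 2.82 for the assembly factor Ndufaf1 (5.80 to 8.62).

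The first comparison sets each cell type after 20 hours with IL-7 against cells taken directly from the spleen. It joins culture and IL-7. Naive cells had no medium group, so for them culture and IL-7 cannot be told apart. For memory cells, IL-7 against medium is given further below. In both memory and naive cells 3 complex I genes rose: the assembly factors Ndufaf1 and Ndufaf3 and the core subunit Ndufs7. The share of all genes that passed in both cell types is not given here, so this count is no result about complex I. In memory cells 6 of 88 genes passed the test, which is 6.82%, and 19.9% of all genes tested did. Of these, 4 were higher (11.1% of all genes were) and 2 lower (8.85%). In naive cells 5 of 88 passed, all higher, which is 5.68%, and 12.8% of all genes did (7% higher, 5.8% lower). The share of members that passed was thus below that of all genes in both cell types. The median change of the members was -0.03 in memory cells (all genes -0.05) and 0.21 in naive cells (all genes 0.07).

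Ndufaf1 is an assembly factor that helps build the membrane arm of complex I. Its log2 level was 6.10, 5.91, 6.38 and 5.89 on the memory ex vivo arrays and 7.94 and 8.03 on the memory IL-7 arrays. In naive cells it was 6.63 and 6.04 ex vivo and 8.26 and 8.31 with IL-7. Both IL-7 groups lay wholly above both ex vivo groups. The rise was 1.91 in memory cells (SE 0.42, 3.77-fold, adjusted p = 0.00944, limma) and 1.95 in naive cells (SE 0.49, 3.87-fold, adjusted p = 0.0208).

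In the other cultured groups the level of Ndufaf1 was 8.15 and 8.62 in naive cells with both cytokines, 7.98 and 7.84 in memory cells with both, and 8.26 and 7.96 in memory cells with IL-4 alone. In medium the 2 arrays were far apart, at 8.10 on array 1 and 5.80 on the array labelled replicate 2, the lowest of all 18. With that array set aside, all 11 remaining cultured arrays lay above all 6 ex vivo arrays for Ndufaf1, Ndufs7 and Sdha, the flavoprotein subunit of complex II. These are 3 of 88 members (3.41%), against 8.9% of all genes tested, and 0 members (4.77% of all genes) lay wholly below. With all 12 cultured arrays, 0 members lay wholly above (0.53% of all genes) and 0 wholly below (0.893%). Sdha ran from 10.75 to 11.28 ex vivo and from 11.39 to 11.89 on those 11 arrays, and its change did not pass the test in memory cells (0.50, SE 0.24, adjusted p = 0.158) or in naive cells (0.40, SE 0.28, adjusted p = 0.41).

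Ndufs7 holds the last iron-sulfur cluster before ubiquinone in complex I. It read 10.90, 10.77, 10.98 and 10.54 in memory cells ex vivo and 11.56 and 11.75 with IL-7, and 10.96 and 10.39 in naive cells ex vivo and 11.79 and 11.82 with IL-7. Neither pair of groups overlapped. It rose by 0.86 in memory cells (SE 0.23, 1.81-fold, adjusted p = 0.0189) and by 1.13 in naive cells (SE 0.26, 2.19-fold, adjusted p = 0.0149). Its second probe set, fitted among all probe sets, moved by 0.78 (adjusted p = 0.0267) and 1.14 (adjusted p = 0.0152).

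Ndufaf3, which acts early in complex I assembly, read 7.11, 6.91, 7.10 and 6.70 in memory cells ex vivo and 7.56 and 7.87 with IL-7. In naive cells it read 6.62 and 6.65 ex vivo and 7.77 and 7.78 with IL-7, and the groups did not overlap in either cell type. The rise was 0.76 in memory cells (SE 0.23, 1.69-fold, adjusted p = 0.0351) and 1.13 in naive cells (SE 0.27, 2.20-fold, adjusted p = 0.0165). A further assembly factor, the arginine methyltransferase Ndufaf7, rose by 0.79 in memory cells (SE 0.24, adjusted p = 0.0313), from 6.70, 6.21, 6.37 and 6.29 to 7.18 and 7.18. In naive cells its change of 0.54 (SE 0.27) did not pass (adjusted p = 0.225), and 1 of its ex vivo arrays, at 7.11, lay close to both IL-7 arrays, at 7.23 and 7.25. Over the 8 assembly factors, 3 rose in memory cells (11.1% of all genes were called higher) and 2 in naive cells (7%), with medians of 0.13 and 0.59. A negative change was found for 3 of the 8 in memory cells, the lowest -0.73, and for 1 in naive cells, and none was called lower. These shares were not tested against each other.

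**Figure D2:**
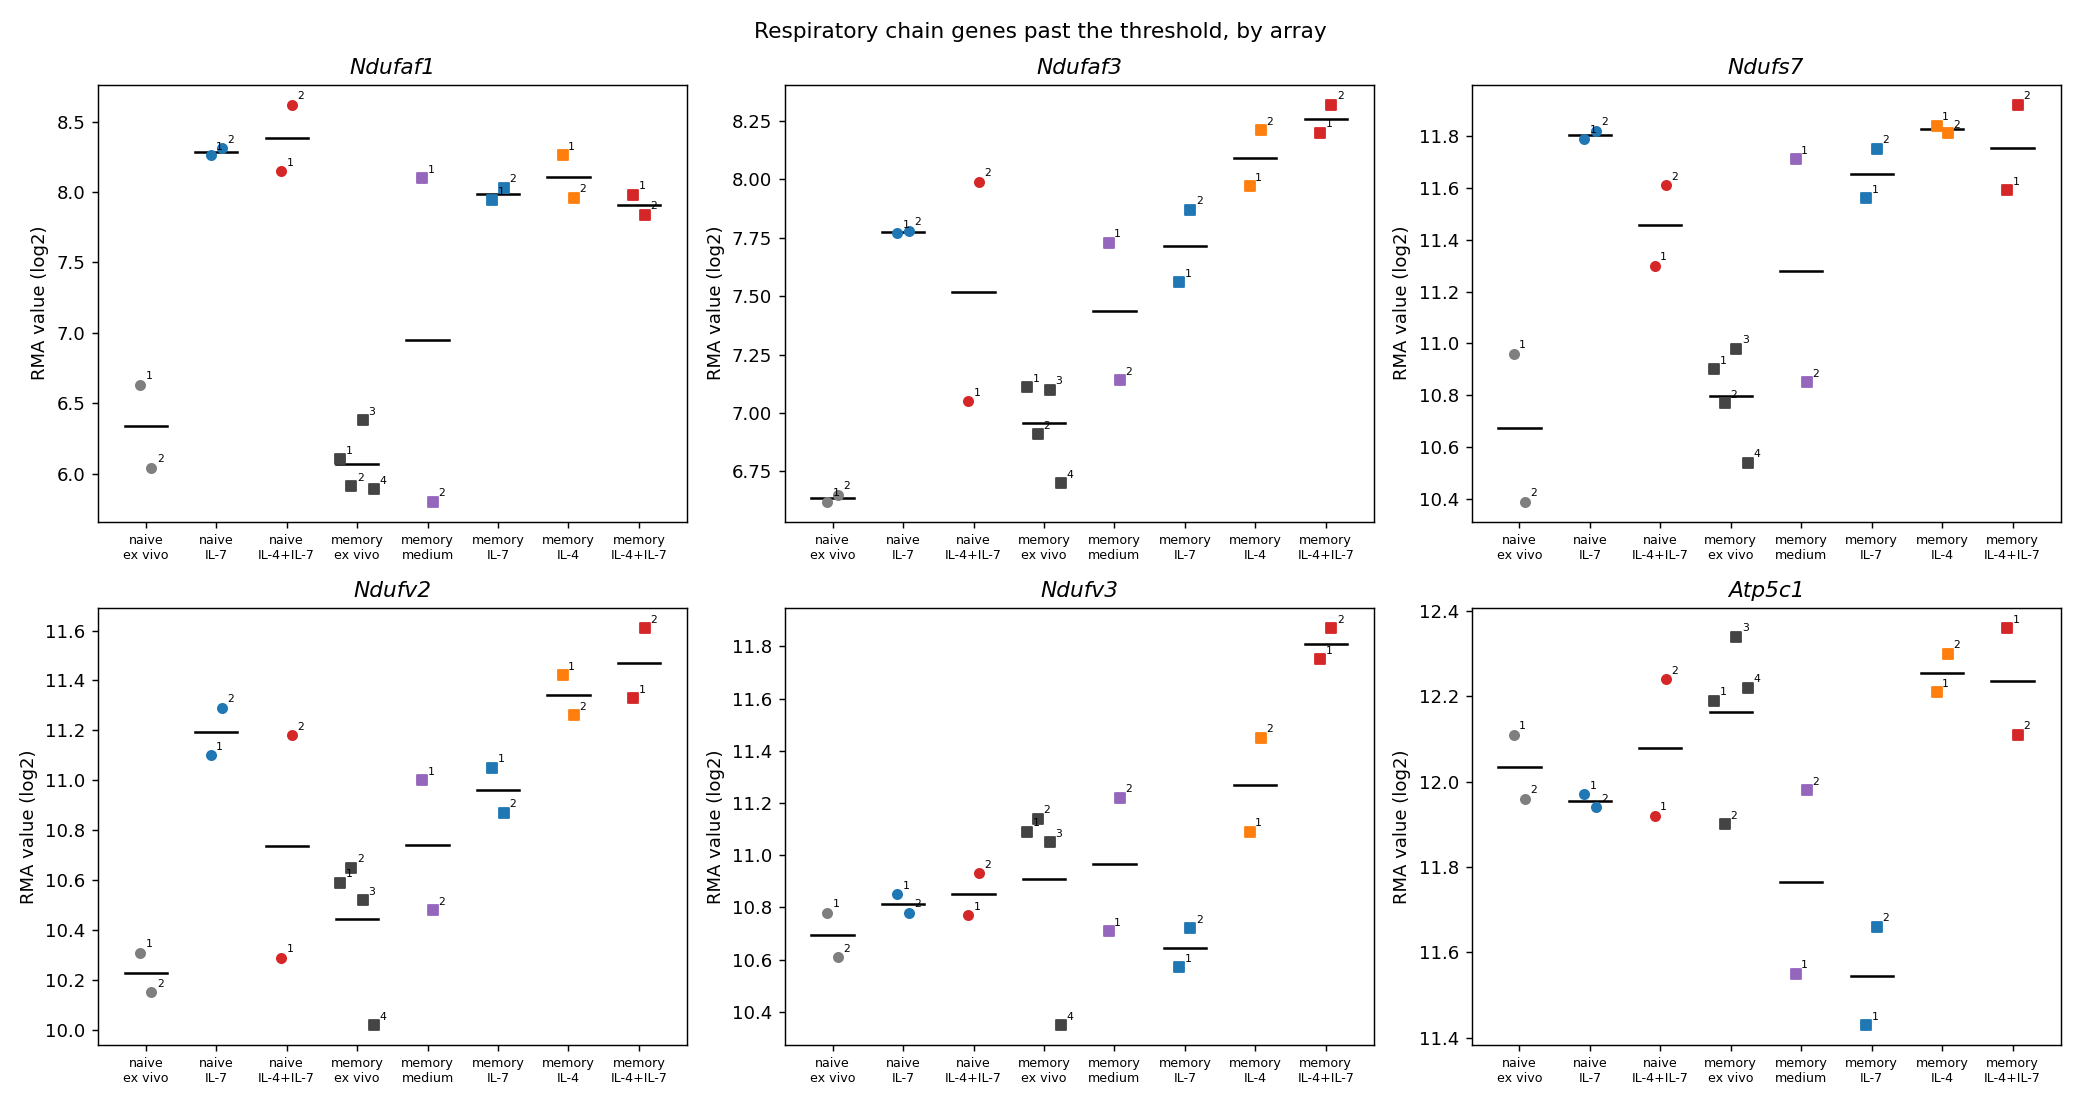
Log2 level on each of the 18 arrays, by group, for Ndufaf1, Ndufaf3, Ndufs7, Ndufv2, Ndufv3 and Atp5c1. Circles are naive arrays, squares memory arrays, lines group means and small digits array numbers. Ndufaf1 and Ndufs7 are higher on all cultured arrays than on all ex vivo arrays except for the array labelled medium, replicate 2 (5.80 and 10.85).

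In naive cells 2 more complex I subunits rose. Ndufv2, an iron-sulfur subunit of the module that oxidises NADH, read 10.31 and 10.15 ex vivo and 11.10 and 11.29 with IL-7, a rise of 0.96 (SE 0.28, 1.95-fold, adjusted p = 0.0362). Ndufb9, an accessory subunit of the membrane arm, read 10.49 and 10.03 ex vivo and 11.19 and 11.43 with IL-7, a rise of 1.05 (SE 0.31, 2.07-fold, adjusted p = 0.0428). The groups did not overlap for either gene. The dimmer probe sets of Ndufv2 moved by 0.91 and 0.75 and those of Ndufb9 by 0.95 and 0.23, and none of the 4 passed (lowest adjusted p = 0.0852 among all probe sets). Of the 36 complex I subunits, 28 had a positive change in naive cells (median 0.40).

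In memory cells with IL-7, 2 members fell. Atp5c1, the gamma subunit that forms the rotating shaft of ATP synthase, read 12.19, 11.90, 12.34 and 12.22 ex vivo and 11.43 and 11.66 with IL-7, and fell by 0.62 (SE 0.17, 1.53-fold, adjusted p = 0.0211). The groups did not overlap, but its dimmer probe set moved the other way, by 1.0 (adjusted p = 0.0201), so the direction for this gene depends on the probe set. Ndufa4l2, a relative of Ndufa4 known from hypoxia, fell by 0.53 (SE 0.16, adjusted p = 0.0312) from 5.84, 5.88, 5.88 and 5.70 to 5.30 and 5.30, at levels not far above the filter. Of the 17 ATP synthase genes, 5 had a positive change in memory cells and the median was -0.26. Of the other genes near the threshold, all chosen here after their values were seen, the c-ring gene Atp5g1 changed by -0.93 (adjusted p = 0.0592) and the catalytic beta subunit gene Atp5b by -0.41 (adjusted p = 0.0612).

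No member passed the test for a difference in culture response between memory and naive cells (limma, 0 of 88, against 0.0508% of all genes). This does not show that the responses were equal. At an unadjusted p under 0.05 there were 7 members (7.95%), against 10.4% of all genes, and 74 of the 88 differences were negative. The largest difference was -1.06 for the assembly factor Ndufaf6 (SE 0.50, adjusted p = 0.487), with -0.92 for Uqcrq (SE 0.70, adjusted p = 0.655), a small subunit of complex III, and -0.88 for the complex I accessory subunit Ndufa12 (SE 0.54, adjusted p = 0.576). The difference was -0.04 for Ndufaf1 (SE 0.64) and -0.27 for Ndufs7 (SE 0.35). The median difference of the members was -0.29, memory less naive, against -0.09 over all genes.

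**Figure D3:**
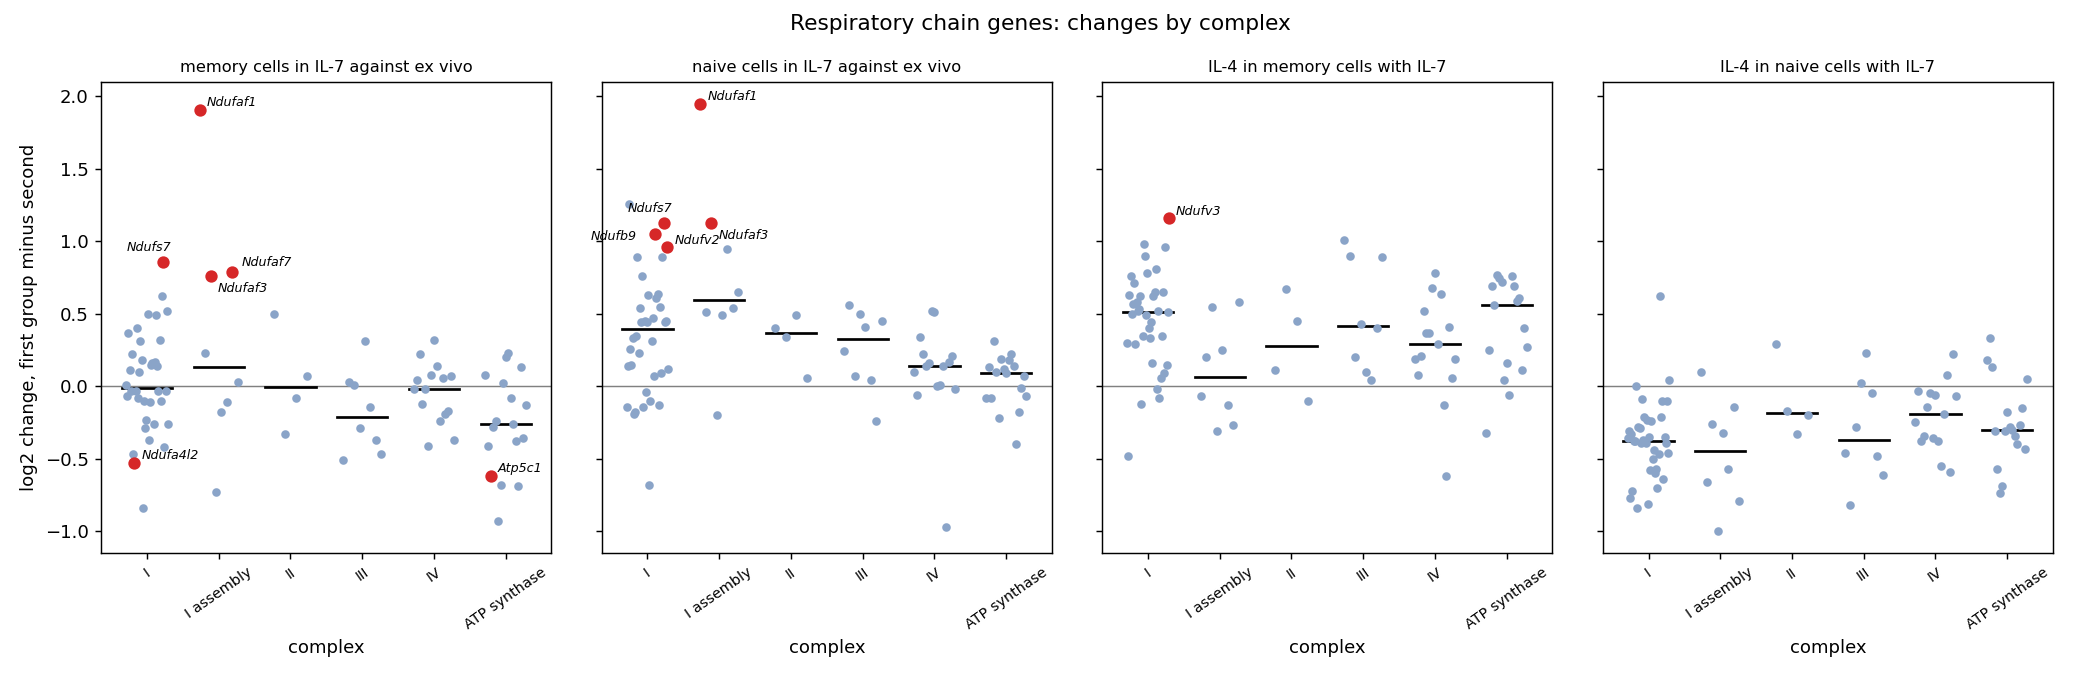
Log2 change of the 88 genes tested, by complex, in 4 comparisons. Red points with names passed the test (adjusted p under 0.05), and black lines are medians. The naive IL-7 panel has complex I subunits around a median of 0.40, the memory IL-4 panel has 75 of 88 points above 0, and the naive IL-4 panel has 12 above 0.

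Several of these calls depend on single arrays. With either memory IL-7 array left out, 0 members passed in memory cells (0.392% of all genes without array 1 and 0.0218% without array 2). Without memory ex vivo array 2 there were 3 (14.6% of all genes), and without either naive IL-4 plus IL-7 array 12 (22.3%). In naive cells 0 passed without naive ex vivo array 2 (2.56% of all genes) or without naive IL-7 array 1 (5.04%) or 2 (1.87%), 3 passed without naive ex vivo array 1 (5.78%), and Ndufb9 passed in 5 of the 18 fits that left out 1 array. Without the array labelled medium, replicate 2, which enters only the pooled spread here, 9 members passed in memory cells (26.9% of all genes) and 7 in naive cells (20.1%). The 3′ less 5′ difference of the Gapdh control was 2.07 to 2.69 on ex vivo arrays and 2.67 to 3.36 on the cultured arrays other than that one, on which it was 2.35. That of the Actb control was 1.95 and 2.06 in naive cells ex vivo and 1.64 and 1.63 with IL-7. In memory cells it was 1.96 to 2.07 ex vivo and 2.25 and 1.86 with IL-7. The part of RNA quality in these changes was not tested. The B cell markers given above were also lower in memory cells with IL-7 than ex vivo, and their part was not tested.

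The 250 bases before the transcription start are printed for the 3 genes that rose in both cell types, for Ndufv3, the member that passed the test with IL-4, and for Uqcr11, which had the largest difference in IL-4 response. They were read from the RefSeq promoter table of build GRCm38.p6 and run 5′ to 3′ on the gene's strand. Capitals mark matches to CCGGAAG, the core of the site bound by ETS factors such as GABP, on either strand.
Ndufaf1: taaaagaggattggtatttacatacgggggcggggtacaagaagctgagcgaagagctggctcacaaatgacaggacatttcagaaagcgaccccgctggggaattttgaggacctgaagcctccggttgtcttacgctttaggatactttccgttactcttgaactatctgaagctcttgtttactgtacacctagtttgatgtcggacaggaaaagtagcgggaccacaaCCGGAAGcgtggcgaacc
Ndufs7: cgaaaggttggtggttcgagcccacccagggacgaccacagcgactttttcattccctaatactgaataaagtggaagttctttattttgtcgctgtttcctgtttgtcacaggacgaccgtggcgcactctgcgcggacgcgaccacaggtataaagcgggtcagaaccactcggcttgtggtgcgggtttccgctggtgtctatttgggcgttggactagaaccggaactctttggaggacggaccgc
Ndufaf3: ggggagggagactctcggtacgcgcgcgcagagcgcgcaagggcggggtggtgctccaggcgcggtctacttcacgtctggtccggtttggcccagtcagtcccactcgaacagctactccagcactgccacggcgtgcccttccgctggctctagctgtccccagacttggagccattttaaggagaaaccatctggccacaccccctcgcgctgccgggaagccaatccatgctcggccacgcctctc
Ndufv3: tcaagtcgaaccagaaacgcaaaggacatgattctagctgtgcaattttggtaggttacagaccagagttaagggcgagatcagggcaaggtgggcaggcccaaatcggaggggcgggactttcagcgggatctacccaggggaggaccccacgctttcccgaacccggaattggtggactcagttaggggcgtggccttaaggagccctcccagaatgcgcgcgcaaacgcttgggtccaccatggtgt
Uqcr11: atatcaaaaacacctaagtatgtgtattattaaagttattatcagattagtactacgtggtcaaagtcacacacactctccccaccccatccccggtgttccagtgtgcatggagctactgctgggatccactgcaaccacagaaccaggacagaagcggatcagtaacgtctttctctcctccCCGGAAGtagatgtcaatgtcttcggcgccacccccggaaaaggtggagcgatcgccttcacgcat
The intervals are chr2:119662835-119663084 (minus strand) for Ndufaf1, chr10:80249199-80249448 (plus) for Ndufs7, chr9:108567437-108567686 (minus) for Ndufaf3, chr17:31519865-31520114 (plus) for Ndufv3 and chr10:80406822-80407071 (minus) for Uqcr11. The ETS match ends 11 bases before the start in Ndufaf1 and 59 bases before it in Uqcr11, and the stretches of Ndufs7, Ndufaf3 and Ndufv3 hold no match to the motifs searched. A match is a description of letters and not a binding site.

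Over the 74 members with a promoter in the table (300 bases, 250 before and 50 after the start), motifs of the factors best known for respiratory chain promoters were counted on both strands. The NRF1 motif GCGCATGCG was in 9 (12.2%), against 3.1% of the 14369 genes of the table with a single-symbol probe set and 1.95% of all 27025 genes of the table. The looser GCGCNTGCG, which includes it, was in 24 (32.4%, against 11.7% and 7.12%), CCGGAAG in 19 (25.7%, against 15% and 9.93%) and the YY1 motif AAGATGGC in 10 (13.5%, against 4.09% and 3.19%). ATP synthase genes had the looser NRF1 motif in 9 of 15 (60%), complex I subunits in 7 of 32 and complex IV genes in 1 of 12. Uqcr11 had the NRF1 motif GCGCATGCG, read on either strand, in its window but not wholly within the stretch printed. Among the genes that passed a test, Ndufs7 had a YY1 match in the 50 bases after the start and Atp5c1 the looser NRF1 motif. These shares were not tested.

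The next comparison asks what IL-4 added in memory cells. With IL-7 present, 1 member passed, Ndufv3, an accessory subunit of the NADH-oxidising module of complex I. This is 1.14% of 88, and 1.81% of all genes passed (1.21% as higher). Ndufv3 read 10.57 and 10.72 with IL-7 and 11.75 and 11.87 with IL-7 and IL-4, a rise of 1.16 (SE 0.25, 2.24-fold, adjusted p = 0.0271). The 2 arrays with both cytokines were the highest of all 18 for this gene, and the next highest, at 11.45, was a memory array with IL-4 alone. The rise ranged from 1.09 to 1.24 with single arrays left out and it did not pass in the 4 fits that left out 1 of the arrays compared.

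Across the complexes most changes with IL-4 were positive without passing the test. A positive change was found for 75 of 88 members (85.2%, against 60.2% of all genes), with a median of 0.40 against 0.08, and 16 members (18.2%, against 14.2% of all genes) had an unadjusted p under 0.05. The median was 0.56 for ATP synthase (15 of 17 positive), 0.51 for complex I subunits (32 of 36), 0.41 for complex III (8 of 8), 0.29 for complex IV (13 of 15), 0.28 for complex II and 0.06 for the assembly factors (4 of 8). Nearest to the threshold were Cox6b2, the testis form of a complex IV subunit (0.78, SE 0.20, adjusted p = 0.0655), and Sdhb, the iron-sulfur subunit of complex II (0.67, SE 0.17, adjusted p = 0.0659). Sdhb read 11.06 and 11.38 with IL-7 and 11.92 and 11.84 with both cytokines. Atp5c1 changed by 0.69 (SE 0.19, adjusted p = 0.0927), while its dimmer probe set changed by -0.35 (adjusted p = 0.638 among all probe sets). Uqcr10, a small subunit of complex III, changed by 1.01 (SE 0.30, adjusted p = 0.12), and the complex I accessory subunit Ndufb1 by 0.98 (SE 0.34, adjusted p = 0.195).

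This comparison and that of memory cells in IL-7 with ex vivo cells share the 2 memory IL-7 arrays. For Atp5c1 those 2 arrays, at 11.43 and 11.66, were the lowest of the memory arrays other than medium array 1 (11.55), and the arrays with both cytokines, at 12.36 and 12.11, lay within the ex vivo range of 11.90 to 12.34 or just above it. Without the array labelled medium, replicate 2, the IL-4 comparison called 4 members, Atp5c1 (by its brighter probe set), Cox6b2, Ndufv3 and Sdhb (3.91% of all genes passed in that fit).

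Without IL-7, IL-4 was compared with medium. None of the 88 members passed (limma; 1.94% of all genes), 6 (6.82%) had an unadjusted p under 0.05, against 13.4% of all genes, and 72 had a positive change, with a median of 0.15 against 0.06 over all genes. Of the complex I subunits 33 of 36 were positive (median 0.25). The largest changes were 1.16 for Ndufaf1 (SE 0.49, adjusted p = 0.302), 0.78 for the complex I accessory subunit Ndufs4 (SE 0.39, adjusted p = 0.413) and 0.66 for Ndufaf3 (SE 0.27, adjusted p = 0.289). Without the array labelled medium, replicate 2, these changes were 0.01 for Ndufaf1, 0.66 for Ndufs4 and 0.36 for Ndufaf3. With medium array 1 left out instead, so that this array stood alone for medium, 6 members passed, all higher (17.2% of all genes), and with replicate 2 left out none did (1.54% of all genes).

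In naive cells with IL-7 the members leaned the other way with IL-4, but the 2 arrays of naive cells with both cytokines differed widely. None of the 88 passed (limma; 1.26% of all genes), 3 (3.41%) had an unadjusted p under 0.05, against 8.73% of all genes, and 12 had a positive change (median -0.32, all genes 0). The largest changes were -1.0 for the assembly factor Ndufaf4 (SE 0.32, adjusted p = 0.233), -0.84 for the complex I accessory subunit Ndufa5 (SE 0.41, adjusted p = 0.605) and -0.82 for Uqcr11, a small subunit of complex III (SE 0.50, adjusted p = 0.72). Ndufaf4 read 11.01 and 10.61 with IL-7 and 9.28 and 10.35 with both cytokines, so the groups did not overlap. Uqcr11 read 10.84 and 11.15 with IL-7 and 9.37 and 11 with both, so its second array lay between the IL-7 arrays. Without array 1 of naive cells with both cytokines the median of the members was 0.14 (64 positive, none passed), and without array 2 it was -0.82 (8 positive, 1 higher and 18 lower passed, 4.88% of all genes).

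Set against each other, the response to IL-4 was more positive in memory than in naive cells for 77 of 88 members, with a median of 0.76 against 0.08 over all genes. None passed (limma; 0.0726% of all genes), and 29 members (33%) had an unadjusted p under 0.05, against 10.1% of all genes. The median was 0.93 for complex I subunits (33 of 36 positive), 0.83 for ATP synthase, 0.68 for complex III, 0.63 for the assembly factors, 0.51 for complex IV and 0.43 for complex II. Uqcr11 had the largest difference, 1.72 (SE 0.70, adjusted p = 0.462), then the complex I accessory subunit Ndufb2, 1.59 (SE 0.67, adjusted p = 0.462), and Uqcrq, 1.5 (SE 0.74, adjusted p = 0.523). For Ndufv3 it was 1.13 (SE 0.35, adjusted p = 0.342). The median was 0.29 without naive IL-4 plus IL-7 array 1 (64 positive, none passed) and 1.26 without array 2 (81 positive, 23 passed, all higher, 2.67% of all genes).

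IL-7 was compared with medium in memory cells. None of the 88 members passed (limma; 0% of all genes), 2 (2.27%) had an unadjusted p under 0.05, against 5.84% of all genes, and 26 had a positive change (median -0.13, all genes 0). The largest changes were 1.04 for Ndufaf1 (SE 0.49), -0.75 for Ndufb1 (SE 0.34) and -0.65 for Atp5g1 (SE 0.38), each with an adjusted p of 0.723. Without the array labelled medium, replicate 2, they were -0.11, -0.34 and -0.1. With medium array 1 left out instead, 5 members passed (3 higher, 2 lower, 16.3% of all genes).

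Memory cells in medium were also set against memory cells ex vivo, and 0 of 88 members passed (limma; 0% of all genes; 3, or 3.41%, at an unadjusted p under 0.05, against 9.91% of all genes; median 0.07, all genes -0.02). The largest changes were 0.88 for Ndufaf1 (SE 0.42, adjusted p = 0.52), 0.56 for the complex I accessory subunit Ndufs5 (SE 0.47, adjusted p = 0.707) and 0.49 for Ndufs7 (SE 0.23, adjusted p = 0.504). Without the array labelled medium, replicate 2, the change was 2.03 for Ndufaf1, 0.75 for Ndufs5 and 0.92 for Ndufs7, and Ndufaf1 and Ndufs7 passed (16.4% of all genes). Without medium array 1 it was -0.28 for Ndufaf1.

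Memory and naive cells were compared directly after sorting. None of the 88 members passed (limma; 1.93% of all genes; 2 members, 2.27%, at an unadjusted p under 0.05, against 17.2% of all genes), and 56 were higher in memory cells, with a median of 0.07 against 0.03 over all genes. The largest changes were 0.51 for Cox8c (SE 0.19, adjusted p = 0.203) and 0.46 for Cox6a2 (SE 0.17, adjusted p = 0.201), forms of complex IV subunits known from testis and from heart and muscle, and 0.44 for Ndufb9 (SE 0.27, adjusted p = 0.421). Cox6a2 read 5.65 and 5.67 in naive cells and 6.33, 6.12, 5.93 and 6.09 in memory cells, without overlap. The median of the members was -0.04 without naive ex vivo array 2, 0.17 without naive ex vivo array 1 and 0.19 without memory ex vivo array 4.

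After 20 hours with IL-7, 11 of 88 members were higher in memory than in naive cells, with a median of -0.23 against -0.05 over all genes. None passed (limma; 2.7% of all genes), and 5 (5.68%) had an unadjusted p under 0.05, against 13.3% of all genes. The largest differences were -0.81 for Uqcrq (SE 0.53, adjusted p = 0.604), -0.70 for Ndufb2 (SE 0.47, adjusted p = 0.631) and -0.69 for Atp5g1 (SE 0.38, adjusted p = 0.495). Uqcrq read 10.87 and 10.78 in memory cells and 11.24 and 12.03 in naive cells, so the groups did not overlap, and the 2 naive arrays lay farther apart than the groups did at their nearest.

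The forms of complex subunits that are known from other tissues differed in how far they ranged. Over all 18 arrays Cox4i2, the lung and hypoxia form, ran from 4.63 to 5.0, Cox6a2 from 5.63 to 6.33, Cox8b, known from heart and muscle, from 4.91 to 5.65, and Cox8c from 6.66 to 7.72. The widest of them was Cox6b2, from 4.27 to 5.88, with 5.71 and 5.88 in memory cells with both cytokines and 5.59 and 5.81 with IL-4 alone. Of the genes with related symbols, Cox4i1 ran from 12.94 to 13.87, Cox6a1 from 13.58 to 14.26 and Cox7a2l from 13.28 to 13.70. Levels of different probe sets are not comparable with each other, and the filter value of 4.06 is no measured background.

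The shared spread within groups was examined gene by gene. On naive IL-4 plus IL-7 array 1, 76 of 88 members (86.4%) were lower than on array 2, against 51.7% of all genes, and 59 (67%) were lower by more than 0.5, against 16.9%. The median difference was -0.98 (all genes -0.02), and by complex it was -1.12 for complex I subunits (32 of 36 lower), -1.0 for the assembly factors (8 of 8), -0.84 for ATP synthase (15 of 17), -0.60 for complex III (6 of 8), -0.43 for complex IV (12 of 15) and -0.28 for complex II (3 of 4). Named here after their values were seen, the lowest were the assembly factor Ndufaf2 (-2.22), Uqcrq (-1.97), Ndufs5 (-1.92) and the ATP synthase epsilon subunit Atp5e (-1.73).

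Some members, chosen here after their values were seen, lay on the other side in the same pair of arrays. Ndufs1, the largest iron-sulfur subunit of complex I, was 0.88 higher on array 1 (11.08 and 10.20), the complex III core protein Uqcrc1 0.58 higher, and the catalytic subunits Atp5b and Atp5a1 and the flavoprotein Sdha 0.31, 0.29 and 0.26 higher. Other core subunits were lower on array 1, among them Ndufs8 (-0.98), Ndufv2 (-0.89), Ndufs3 (-0.76), Sdhb (-0.39), Ndufs7 (-0.3) and Uqcrfs1 (-0.29), and Ndufv1 was equal on both at 2 decimals. Members of the same complex thus differed in size and side. The 76 mitochondrial ribosome genes deviated by -0.54 and 0.45 on average on the 2 arrays, and the pyruvate dehydrogenase and citric acid cycle genes by 0.27 and 0.24. Gene sets outside mitochondria, added after seeing the data, also differed: 49 cytosolic ribosome genes deviated by -0.36 and 0.11 and 38 proteasome genes by -0.19 and 0.33, so the lower values on array 1 were not particular to mitochondrial genes. The Gapdh control difference was 2.88 and 2.87 on the 2 arrays, so it did not separate them. The Actb control difference was 2.09 and 1.99. The mean of the 7 memory markers was 5.66 on 1 of the 2 arrays and 7.08 on the other, and the part of cell make-up was not tested.

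Memory ex vivo array 4 showed the same side of the chain. Compared with the mean of the other 3 arrays, 73 of 88 members were lower (83%, against 47.9% of all genes), 40 by more than 0.5 (45.5%, against 4.16%), with a median of -0.41 against 0.01. It was below each of the other 3 for 64 of 88 members, as it was for 22.6% of all genes. Uqcr11 had the largest deficit, -1.45, with 9.42 against 10.89, 10.89 and 10.85, and Ndufs5 read 6.08 against 7.39, 7.39 and 7.45. Cox7c, a small subunit of complex IV, was 0.63 higher on this array. The Gapdh control difference of array 4, 2.07, was the lowest of the 18 arrays. The Actb control difference of array 4, 2, lay within the range of the other memory ex vivo arrays (1.96 to 2.07). The part of RNA quality in these values was not tested.

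Naive ex vivo array 2 was lower than array 1 for 66 of 88 members (75%, against 47.6% of all genes), with a median of -0.20 against 0.02. The complex I subunits Ndufc1 (-1.5) and Ndufs4 (-1.0) had the largest differences, and complex IV did not lean this way (6 of 15 lower). All 3 differences were negative for 57 of the 88 members (64.8%, against 17.1% of all genes). A difference below -0.5 in all 3 was found for 13 members (14.8%, against 0.973%): Atp5e, Atp5j, Ndufa1, Ndufa3, Ndufab1, Ndufaf2, Ndufb2, Ndufb3, Ndufb7, Ndufc1, Ndufc2, Ndufs5 and Uqcr11. The 3 arrays were picked because their member means were low, so these counts are a description.

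**Figure D4:**
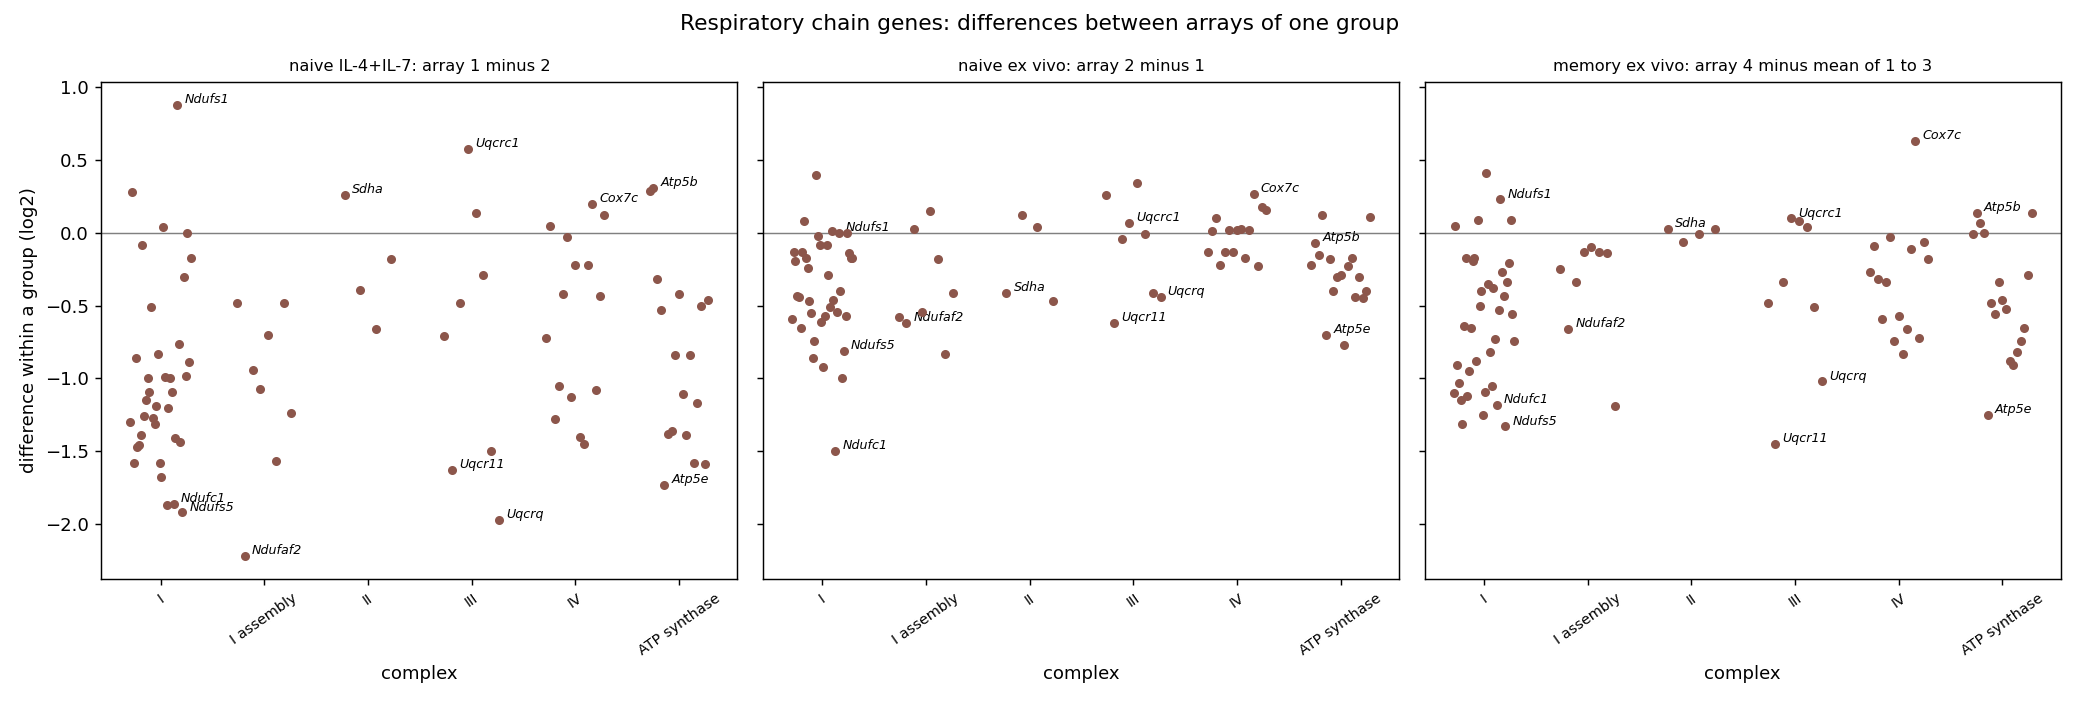
Differences (log2) between arrays of 1 group for the 88 genes tested, by complex: naive IL-4 plus IL-7 array 1 less array 2, naive ex vivo array 2 less array 1, and memory ex vivo array 4 less the mean of arrays 1 to 3. The grey line marks 0, and most points lie below it in the first panel (76 of 88) and in the last (73 of 88).

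The remaining pairs leaned less or not at all, apart from the naive IL-7 pair. In memory cells with IL-7, array 1 was lower than array 2 for 43 of 88 members (57.9% of all genes; median 0.01), and with IL-4 alone for 39 (54.3% of all genes; median 0.03). In memory cells with both cytokines it was lower for 59 (67%, against 57.9% of all genes, median -0.14), while in naive cells with IL-7 the lean was as given above, with 72 of 88 lower (81.8%, against 49.6% of all genes). Over all groups the median within-group SD was 0.329 log2 units for the members and 0.231 for all genes tested. It was 0.388 for the assembly factors, 0.362 for complex I subunits, 0.332 for ATP synthase, 0.261 for complex III, 0.23 for complex II and 0.225 for complex IV.

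Other mitochondrial genes were counted in the same fits. Beside the counts for naive cells with IL-7 that follow, 7% of all genes tested were called higher and 5.8% lower. In naive cells with IL-7 against ex vivo, 19 of 76 mitochondrial ribosome genes were higher and 0 lower (median 0.63, 71 positive; all genes 0.07), led by Mrpl58 (2.11, adjusted p = 0.00451), Mrps10 (1.86, adjusted p = 0.00811) and Mrpl39 (1.51, adjusted p = 0.0152). Of 32 assembly and insertion factors outside the rule, 7 rose and 2 fell (median 0.60), among them the complex IV factors Surf1 (1.4) and Coa3 (1.57), the complex III factor Bcs1l (1.10) and the complex II factor Sdhaf1 (1.42), all higher, and Cox11 (-0.99) and Ttc19 (-1.51), lower. Coenzyme Q synthesis genes Coq9 (0.73) and Coq5 (0.69) rose among 8 electron carrier genes, and Idh3b (0.61) and Fh1 (0.86) of the citric acid cycle among 15.

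In memory cells with IL-7 against ex vivo, 5 of the 76 mitochondrial ribosome genes were higher and 1 was lower (median 0.15), with Mrpl27 (1.5) and Mrpl58 (1.34) among the higher. In the same comparison 11.1% of all genes tested were called higher and 8.85% lower. Of the 32 assembly and insertion factors, 2 were higher, Oxa1l (0.54) and Tmem70 (0.56), and 3 were lower, Cox10 (-0.87), Cox11 (-1.08) and Nubpl (-1.01). Coq9 rose by 0.57 and was the 1 electron carrier gene called, and of the citric acid cycle Idh3b rose by 0.55 while Suclg2 changed by -0.82 and was called lower. Of 17 regulators of mitochondrial biogenesis and mitochondrial DNA, 3 were higher and 4 lower. The ETS factor subunit Gabpa rose by 0.62 and its partner Gabpb1 changed by -2.07 (adjusted p = 0.0102, limma). Mterf1a had the largest rise of the list (2.25), and Tfb2m (-1.25), Pprc1 (-1) and Polg2 (-0.63) were the others called lower. In naive cells Gabpb1 changed by -2.26 and was also called lower, Mterf1a rose by 2.24, and Gabpa changed by 0.01 and did not pass. The mitochondrial DNA binding protein Ssbp1 rose in memory (1.14) and naive cells (0.94).

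When IL-4 was added to IL-7 in memory cells, 1 gene of these lists passed, Ogdh of the citric acid cycle, which was lower (-1.22, adjusted p = 0.0366, limma). Of all genes tested, 1.81% passed. The mitochondrial ribosome had 65 of 76 positive changes (median 0.31, none passed), and in naive cells 6 of 76 (median -0.41, none passed). For the difference between those responses it had 71 of 76 positive (median 0.68, none passed). These medians use the same naive IL-4 plus IL-7 arrays as those of the respiratory chain, on which both gene groups deviated together. No gene of the lists passed in memory against naive cells ex vivo, where 1.93% of all genes did.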

How the data were processed

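Expression was measured on 18 Affymetrix arrays. The deposited values are log2 values, 1 per probe set and array, made by the authors with RMA, a method that corrects background, equalises array distributions and summarises probes, per the submitters' processing notes, which name RMA and limma without versions. Per the labels' protocols, 50 ng of RNA was amplified, then labelled with biotin in an in vitro transcription step. Amplified values can depend on RNA quality.

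The table held 45101 probe sets, of which 64 were controls, 34958 had 1 gene symbol, 932 several and 9211 none. Single-symbol probe sets gave 18194 genes through the brightest probe set, and 10 probe sets that matched the rule with several symbols were left out. All 90 Entrez IDs were found in the RefSeq table. Genes above the 40th percentile (4.06) on at least 2 arrays were tested (13770). All 8 groups entered 1 model (limma 3.58.1, R 4.3.3; 10 residual and 4.13 prior degrees of freedom), with two-sided moderated tests and Benjamini-Hochberg adjustment over all genes tested. A gene was called at an adjusted p under 0.05. The fit was tested on simulated data. Groups were taken from the labels.

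Genes named were called members (up to 12 a direction), the 3 largest changes where fewer than 3 were called, core subunits and tissue forms. Members, lists and tests were chosen with earlier results of these data known. Alternatives were other filters, all probe sets averaged, median centring, array weights, a replicate block and each array left out in turn. The last of these was extended, after seeing the data, to arrays outside the groups compared. No protein sequences were used here.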

Additional observations from a re-analysis of the deposited data

Results flagged for a closer look

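In the group of 4 memory ex vivo arrays, 33 genes and 7 gene groups were checked for an array far from the others by Dixon's criterion (gap to the nearest array over the range of the group). By chance about 1 in 20 groups would be picked out, and 10 of the 40 items were. In 9 of them array 4 was low. Ndufb9 read 10.15 on it and 10.84 to 10.92 on the other 3, Ndufv3 10.35 (others 11.05 to 11.14), Ndufs5 6.08 (7.39 to 7.45), Uqcr11 9.42 (10.85 to 10.89), Uqcrq 10.53 (11.52 to 11.58) and Ndufb2 8.82 (10.04 to 10.11). The mean deviation on array 4 was -0.43 for all members (others 0.01 to 0.05), -0.31 for ATP synthase (0.11 to 0.16) and -0.59 for complex I subunits (0 to 0.02). In the remaining item array 3 was high, with Sdhb at 11.68 and 11.49 to 11.50 on the others. Of all 88 members tested, 21 (23.9%) met the criterion in this group, as did 5.15% of all genes tested. The items share arrays and are not independent.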

How the results depend on the processing

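Of 264 counts of called members under the alternatives, 230 were within 1.5 times the reported count. No filter, the 60th percentile filter and median centring moved none beyond it, and centring shifted the median of all genes by at most 0.08. Averaging all probe sets of a gene gave 8 called members in naive cells with IL-7 against ex vivo and 3 for IL-4 in IL-7-treated memory cells, and turned Atp5c1 in memory cells to 0.19. Array weights gave 16 called in memory cells with IL-7 against ex vivo, 11 in naive cells, 10 for IL-4 in IL-7-treated memory cells and 3 for memory against naive cells in IL-7. The share of all genes called with averaged probe sets or array weights is not given here. These counts are therefore no result about the members alone.

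No label says that replicate numbers mark a shared population. For want of a label the numbers were not taken as pairs. Of 17 separate same-number pairs, the deviations of 10 correlated above 0.1 and of 2 below 0 (-0.125 to 0.511), which does not show that the arrays were unpaired. Each memory array with both cytokines was most similar over all genes to the same-number array with IL-4 alone. Each naive array with both cytokines was most similar to the same-number naive IL-7 array. Both memory IL-7 arrays were most similar to medium array 1. The 7 pairs of cultured groups were all above 0 (0.00818 to 0.511). By the design text the cultured groups of a cell type share populations, and these values do not settle which arrays share one. With the replicate block, 8 members were called in naive cells with IL-7 against ex vivo and 3 for IL-4 in IL-7-treated memory cells. The block moved no other count beyond 1.5 times. The share of all genes called with the block is not given here either.

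With 1 array left out, counts ranged from 0 to 12 in memory cells with IL-7 against ex vivo, 0 to 9 in naive cells, 0 to 2 in medium against ex vivo, 0 to 5 for IL-7 against medium, 0 to 4 for IL-4 with IL-7 and 0 to 6 without it in memory cells, 0 to 19 for IL-4 in naive cells and 0 to 23 for the difference in IL-4 response. They stayed at 0 to 0 for memory against naive cells, ex vivo and in IL-7, and for the difference in culture response. Without the array labelled medium, replicate 2, 2 members were called in medium against ex vivo, 9 and 7 in memory and naive cells with IL-7 against ex vivo and 4 for IL-4 in IL-7-treated memory cells. The median of the members ranged from -0.82 to 0.14 for IL-4 in naive cells and from 0.29 to 1.26 for the difference in IL-4 response. Uqcr11 with IL-4 in naive cells ranged from -1.63 to 0 (without naive IL-4 plus IL-7 array 2 or 1), Ndufaf1 in medium against ex vivo from -0.28 to 2.03 and Ndufaf1 with IL-7 against medium from -0.11 to 2.19 (each with medium array 1 or replicate 2 left out). Of 912 values of named genes, 844 kept direction and call, 53 lost the call, 11 gained it and 4 reversed. The cause was not tested. Where a group keeps 1 array, its spread is assumed to be that of the other groups. The share of all genes called differed between the fits with 1 array left out and is not given for each. The counts of these fits are therefore no result about the members alone.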
